A study of Arabidopsis thaliana with 104 samples.

Results

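Pattern-triggered immunity in Arabidopsis thaliana seedlings was followed through 37 genes, taken by their locus identifiers for their known roles, with earlier results of these data known. Shares of members called, set beside those of all genes, are therefore descriptions and not a test of the set. The members were 8 receptors or receptor-like proteins, 6 co-receptors and kinases that act beside or below the receptors, the NADPH oxidase RBOHD, 6 kinases of the MAP kinase cascade, 8 WRKY transcription factors, 5 genes of the Pep peptides and their receptors, and 3 transcripts used as markers of the response to bacterial flagellin. The count table listed all 37 among its 27206 loci. Of these, 18926 genes passed the filter on low counts and were tested, 36 members among them. The remaining member, the receptor-like protein RLP30 (AT3G05360), had 0 counts in all libraries. At a limit of 3 counts, that allows up to 0.00629 CPM (counts per 1000000 counts) over all libraries, and up to 3.14 CPM in the shallowest of them. In the RefSeq annotation RLP30 overlaps AT3G05350 on the same strand, and the limit holds only if its reads were counted, which the table does not show.

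Plants detect microbes at the cell surface with receptors that bind molecules shared by many microbes, such as a peptide of flagellin (seen by FLS2), a peptide of elongation factor Tu (EFR) or chitin (LYK5 with CERK1). Receptors with leucine-rich repeats recruit the co-receptor BAK1, receptor-like proteins also need SOBIR1, and cytoplasmic kinases such as BIK1 pass the signal on to RBOHD, which makes reactive oxygen at the plasma membrane, and to MAP kinases. WRKY factors and defence genes such as FRK1 and NHL10 respond within the following hours, and the plant's own Pep peptides, released from PROPEP precursors and sensed by PEPR1 and PEPR2, amplify the response. PHR1 and its relative PHL1 are MYB-type factors that drive the response to phosphate starvation.

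RNA-seq was made of whole seedlings of 3 genotypes: the double mutant phr1 phl1, the single mutant phr1 and the wild type Col-0. The allele names of the mutants are not given in the labels. All seedlings were germinated for 7 days on medium with 1 mM phosphate (Pi) and 0.5% sucrose, then grown for 12 days on sucrose-free medium with low (50 µM) or high (625 µM) Pi, either with a bacterial synthetic community (SynCom) or with no bacteria. The 12 groups held 10 libraries each for phr1 and Col-0, which came from 5 experiments (A to E), and 6 each for phr1 phl1, which was present in experiments C, D and E alone, with 2 libraries of a group in an experiment. Contrasts of phr1 phl1 with Col-0 therefore set 3 experiments against 5, with experiment as a term of the fit. The labels do not say that libraries of one group and experiment came from separate cultures, so p-values measure the spread between these libraries.

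Libraries held between 955174 and 9550846 counts, with a median of 4335781.5. Photosynthesis transcripts marked shoot tissue in all groups and endodermal transcripts marked root, but the summed level of 5 root hair markers had a median of 1.86 CPM in experiment C and 2.45 CPM in experiment D, against 33.1, 50.1 and 28.6 CPM in experiments A, B and E. The summed level of 10 photosynthesis genes had medians of 30940, 27550 and 25630 CPM with SynCom at low Pi in phr1 phl1, phr1 and Col-0, against 39510, 44950 and 45090 CPM with no bacteria at low Pi. Across Col-0 libraries with SynCom at low Pi it ranged from 1480 to 42700 CPM. Of the 10 genes, 0, 7 and 9 were called lower with SynCom at low Pi in phr1 phl1, phr1 and Col-0. Of 9 endodermal genes, 3, 5 and 1 were lower with SynCom at low Pi in phr1 phl1, phr1 and Col-0, and 3, 3 and 4 at high Pi. Of the root hair genes, 0, 2 and 5 were higher at low Pi and 0, 3 and 0 at high Pi, where 1 was lower in Col-0. Shoot and root markers thus moved with SynCom, and their part in the results below was not tested. In bulk seedlings, fewer cells of a type and less RNA per cell cannot be told apart. Transcripts of the mutated genes were checked against the labels. PHR1 had medians of 38.9, 35.8 and 69.2 CPM of the library total in phr1 phl1, phr1 and Col-0. PHL1 had 100.2, 13.0 and 12.9, so its count was higher, not lower, in libraries labelled phr1 phl1, with no overlap with the other genotypes. A count per gene does not show which part of a transcript was made, and phr1 phl1 below means the libraries with that label. A total below 1000000 counts, or a residual spread over genes above 0.65 on the log2 scale, set 4 libraries apart, which are described after the comparisons. Of 100 member calls over the comparisons, 92 held without them, and values without them are given for some of the others.

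Promoters are shown for 5 members because they span the outcomes: FRK1, RLP23 and WRKY29 were higher with SynCom at low Pi in all 3 genotypes, PROPEP3 was called in phr1, and WRKY33 passed the test in none of the SynCom comparisons. Each sequence is the 300 bases before the annotated gene start in RefSeq's TAIR10.1 assembly, read 5′ to 3′ on the gene's strand, with the W-box cores TTGACC and TTGACT, on either strand, in capitals. WRKY factors bind W-boxes. The FRK1 window lies at chr2:8329945-8330244 on the minus strand, that of RLP23 at chr2:13862615-13862914 on the minus strand, that of WRKY29 at chr4:12291332-12291631 on the plus strand, that of PROPEP3 at chr5:25939262-25939561 on the plus strand and that of WRKY33 at chr2:16107935-16108234 on the plus strand.
FRK1: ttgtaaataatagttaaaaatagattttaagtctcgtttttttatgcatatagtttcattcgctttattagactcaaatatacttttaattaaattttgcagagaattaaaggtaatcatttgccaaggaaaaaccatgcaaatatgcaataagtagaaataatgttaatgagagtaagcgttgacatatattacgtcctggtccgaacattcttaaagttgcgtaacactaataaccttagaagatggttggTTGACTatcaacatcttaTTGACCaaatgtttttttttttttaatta
RLP23: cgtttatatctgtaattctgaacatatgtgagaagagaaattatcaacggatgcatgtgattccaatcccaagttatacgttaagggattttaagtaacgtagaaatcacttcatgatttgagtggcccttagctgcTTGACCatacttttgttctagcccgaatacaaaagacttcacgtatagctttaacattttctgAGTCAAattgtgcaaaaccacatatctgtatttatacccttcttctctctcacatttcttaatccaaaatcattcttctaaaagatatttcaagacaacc
WRKY29: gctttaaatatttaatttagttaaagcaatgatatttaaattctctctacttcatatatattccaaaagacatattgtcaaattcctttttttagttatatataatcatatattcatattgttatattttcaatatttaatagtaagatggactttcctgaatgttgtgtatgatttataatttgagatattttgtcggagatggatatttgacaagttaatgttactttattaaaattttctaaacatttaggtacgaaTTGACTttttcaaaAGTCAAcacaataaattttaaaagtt
PROPEP3: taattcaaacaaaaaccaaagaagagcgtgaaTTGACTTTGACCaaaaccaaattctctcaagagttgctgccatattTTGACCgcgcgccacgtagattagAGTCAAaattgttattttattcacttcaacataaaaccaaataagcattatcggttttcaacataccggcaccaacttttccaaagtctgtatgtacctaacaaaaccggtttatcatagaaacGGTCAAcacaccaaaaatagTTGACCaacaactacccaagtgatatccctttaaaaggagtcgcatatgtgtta
WRKY33: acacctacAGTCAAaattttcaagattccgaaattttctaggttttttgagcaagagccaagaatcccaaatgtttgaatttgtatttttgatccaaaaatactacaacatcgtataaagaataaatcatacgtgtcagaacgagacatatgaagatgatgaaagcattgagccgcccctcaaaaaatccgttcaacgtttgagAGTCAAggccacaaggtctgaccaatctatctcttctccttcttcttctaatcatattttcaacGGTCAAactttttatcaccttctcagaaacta
FRK1, RLP23 and WRKY29 had 2 cores each, WRKY33 had 3 and PROPEP3 had 6. At least 1 core was found in the window of 27 of the 37 members (73%), against 8855 of 27443 protein-coding genes (32.3%). Promoters with W-box cores thus belonged both to members that were higher with SynCom and to members that did not pass the test, and a match describes letters, not binding.

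Levels per kilobase of exon put the members in a wide order. Over all libraries the median was highest for the MAP kinases MPK6 and MPK3, at 51.5 and 48.8 CPM per kb, followed by SOBIR1 (44.2), WRKY33 (37.9), LYM2 (30.6), a chitin-binding LysM protein, and BAK1 (29.0 CPM per kb). Ranges over libraries overlapped between all neighbours in this part of the order. At the low end stood EFR (0.999), PROPEP2 (0.695) and PEPR2 (0.662 CPM per kb). FRK1 and RLP23, with medians of 3.64 and 2.36 CPM per kb, varied far more than most: FRK1 was between 0 and 94.2 CPM per kb. By contrast MPK6 stayed between 38.8 and 81.9 CPM per kb.

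With SynCom at low Pi, 5 members were higher than with no bacteria in all 3 genotypes: FRK1, RLP23, WRKY29, WRKY11 and WRKY17. In total 8 of the 36 members tested were higher in phr1 phl1, 16 in phr1 and 12 in Col-0 (edgeR's quasi-likelihood test, adjusted p under 0.05), and 20 were higher in at least 1 genotype. A single member, MPK6 in Col-0, was lower. Among all genes tested, 8.3% were higher and 5.66% lower in phr1 phl1, 15% higher and 12.2% lower in phr1, and 24.4% higher and 19.6% lower in Col-0, so the share of members called higher was nearer to the background in Col-0 than in the mutants. The median log2 fold change of the members was 0.38, 0.52 and 0.24 in phr1 phl1, phr1 and Col-0, against 0.01, 0.01 and 0.05 for all genes tested. The 3 genotypes' own counts are not a test of a difference between them, which is given further on.

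FRK1 (AT2G19190), a receptor-like kinase transcript used as a readout of flagellin signalling, had the largest change of the members in phr1 phl1 and Col-0. In phr1 phl1 at low Pi it was at 27.3 CPM in the lowest, 54.0 in the median and 141 in the highest SynCom library, against 1.14, 2.45 and 7.20 CPM with no bacteria. The groups did not overlap. In phr1 it was at 15.0, 59.4 and 99.5 CPM with SynCom, against 0.739, 3.29 and 45.7 CPM with no bacteria, and in Col-0 at 1.84, 31.95 and 93.1 CPM, against 1.32, 2.81 and 13.8 CPM. There, 8 of 10 SynCom libraries of each genotype lay above the highest library with no bacteria. The log2 fold changes were 4.41 ± 0.67 (SE; adjusted p = 7.76e-07), 3.01 ± 0.44 (adjusted p = 4.57e-08) and 3.04 ± 0.48 (adjusted p = 1.72e-07) in phr1 phl1, phr1 and Col-0. Fits within single experiments gave the same direction each time, at 4.98, 3.69 and 4.28 in experiments C, D and E for phr1 phl1, at 0.78, 3.89, 5.01, 3.87 and 4.30 in A to E for phr1, and at 1.63, 3.77, 3.58, 1.02 and 4.96 for Col-0. The libraries were not stranded and FRK1 overlaps AT2G19180 on the other strand in the annotation, so reads of the shared stretch cannot be assigned.

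RLP23 (AT2G32680) is the receptor-like protein that binds the nlp20 pattern of microbial necrosis-inducing proteins, and it was the pattern receptor that moved most. At low Pi its levels in phr1 phl1 were 10.9, 18.3 and 217 CPM (lowest, median and highest library) with SynCom, against 2.51, 3.62 and 37.2 CPM with no bacteria. All 6 SynCom libraries lay above the median with no bacteria and 1 above its highest library, so that the groups overlapped. In phr1 the levels were 8.16, 27.1 and 81.2 CPM with SynCom, against 0.957, 2.54 and 26.9 CPM. In Col-0 they were 2.76, 10.7 and 47.2 CPM, against 1.99, 3.94 and 8.86 CPM. The log2 fold changes were 2.26 ± 0.56 in phr1 phl1 (adjusted p = 0.00301), 3.20 ± 0.44 in phr1 (adjusted p = 1.02e-08) and 2.06 ± 0.46 in Col-0 (adjusted p = 0.000137). The direction was shared by all experiments, at 2.82, 2.23 and 1.97 in C, D and E for phr1 phl1, 3.12, 4.14, 4.84, 2.99 and 1.07 in A to E for phr1, and 2.56, 2.49, 2.05, 0.39 and 1.43 for Col-0. The phr1 phl1 call was lost without experiment C (adjusted p = 0.0787) or D (adjusted p = 0.0554), and the Col-0 call when only experiments C, D and E were fitted (adjusted p = 0.122). RLP23 overlaps AT2G32670 on the other strand.

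**Figure D1:**
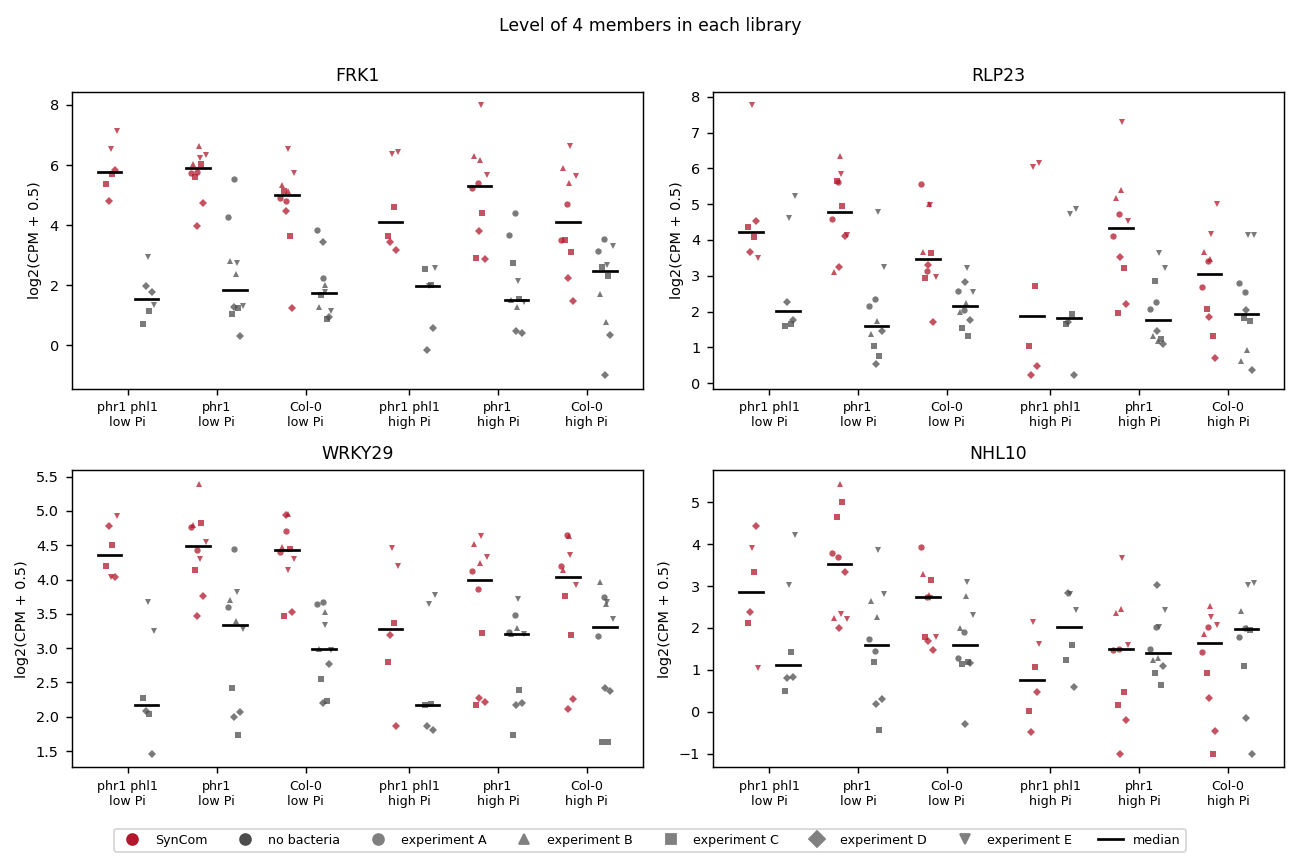
Level of FRK1, RLP23, WRKY29 and NHL10 in each library, as log2(CPM + 0.5), by group, with colour for bacteria, marker shape for the experiment and a line at the median. For FRK1 all 6 phr1 phl1 SynCom libraries at low Pi lie above the 6 with no bacteria, while NHL10 overlaps between SynCom and no bacteria in every genotype.

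The WRKY factors were divided. WRKY29 (AT4G23550), which acts with WRKY22 below the MAP kinases in flagellin signalling, was at 16.0, 20.1 and 29.9 CPM with SynCom at low Pi in phr1 phl1, against 2.25, 4.03 and 12.2 CPM with no bacteria, without overlap. Its log2 fold changes were 2.01 ± 0.29 (adjusted p = 3.70e-07), 1.36 ± 0.20 (adjusted p = 8.12e-08) and 1.44 ± 0.21 (adjusted p = 1.31e-08) in phr1 phl1, phr1 and Col-0. All experiments agreed in sign, with values between 1.02 and 2.80 in phr1 phl1, between 0.61 and 2.51 in phr1 and between 0.93 and 1.97 in Col-0. WRKY29 and FRK1 at low Pi were the only members whose calls in all 3 genotypes held under every alternative setting tried.

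WRKY11 (AT4G31550) and WRKY17 (AT2G24570) are close relatives known as negative regulators of basal resistance, and they changed less but evenly. WRKY11 was at 33.8, 40.5 and 74.1 CPM with SynCom at low Pi in phr1 phl1, against 16.1, 22.6 and 44.2 CPM with no bacteria. Its log2 fold changes were 0.84 ± 0.24, 0.87 ± 0.18 and 0.87 ± 0.18 in phr1 phl1, phr1 and Col-0, and those of WRKY17 were 0.92 ± 0.19, 0.62 ± 0.14 and 0.65 ± 0.14, all with an adjusted p of at most 0.00969. WRKY11 was positive in each experiment, at 0.75, 1.00 and 0.81 in C, D and E for phr1 phl1, and between 0.16 and 1.62 for phr1 and between 0.68 and 1.11 for Col-0. WRKY17 was also positive in each, at 1.296, 0.94 and 0.46 for phr1 phl1, and between 0.11 and 1.32 for phr1 and between 0.36 and 1.05 for Col-0. SynCom and no-bacteria libraries overlapped for both genes in all 3 genotypes. Without experiment C the phr1 phl1 calls of WRKY11 (adjusted p = 0.0885) and WRKY17 (adjusted p = 0.0832) were lost, and without experiment D that of WRKY11 (adjusted p = 0.0519). WRKY41 was higher in phr1 (0.69 ± 0.26) and Col-0 (0.68 ± 0.25), but each call was lost without any of 3 experiments (adjusted p between 0.0557 and 0.278). WRKY22, WRKY30, WRKY33 and WRKY40, the last of these a factor induced early and known to restrain defence, passed the test in none of the 6 SynCom comparisons.

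Among the receptors, EFR (AT5G20480) was higher at low Pi in phr1 phl1 (1.04 ± 0.37, adjusted p = 0.0419) and phr1 (0.68 ± 0.27, adjusted p = 0.0488), and its log2 fold change in Col-0 was 0.37 ± 0.28 (adjusted p = 0.283). Its levels in phr1 phl1 were 3.56, 9.65 and 16.0 CPM with SynCom, against 2.90, 4.85 and 6.03 CPM with no bacteria, with 4 of 6 SynCom libraries above the highest of the others. It was positive in all 3 experiments with phr1 phl1, at 1.03, 0.74 and 1.23 in C, D and E. The phr1 phl1 call of EFR was lost whichever experiment was left out (adjusted p between 0.0504 and 0.224), and the phr1 call without any of A to D. FLS2, the chitin receptors LYK5 and LYM2, the kinase CERK1 and LORE, a lectin kinase for bacterial 3-hydroxy fatty acids, passed the test in none of the 6 SynCom comparisons. FLS2 (AT5G46330) was at 13.0, 18.1 and 52.6 CPM with SynCom at low Pi in phr1 phl1, against 23.7, 28.9 and 39.2 CPM with no bacteria.

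Of the co-receptors and kinases below the receptors, BIK1 (AT2G39660) was higher in phr1 phl1 and SOBIR1 (AT2G31880) in phr1. BIK1 was at 38.1, 47.5 and 56.0 CPM with SynCom at low Pi in phr1 phl1, against 15.8, 24.5 and 36.4 CPM with no bacteria, and the groups did not overlap (0.92 ± 0.26, adjusted p = 0.00855). Without experiment C the BIK1 call was lost (adjusted p = 0.0843). SOBIR1 was at 14.7, 111 and 345 CPM in phr1, against 14.4, 71.9 and 173 CPM, and overlapped widely (0.98 ± 0.37, adjusted p = 0.0354, lost without B or C at 0.15 and 0.262). BAK1 and BIR1, a kinase that interacts with BAK1 and restrains cell death, passed the test in none of the 6 SynCom comparisons, nor did PBL1, the nearest relative of BIK1, or CPK28, which promotes BIK1 turnover, at low Pi. RBOHD (AT5G47910) was higher in Col-0 at low Pi (0.84 ± 0.32, adjusted p = 0.0253), with 39.2, 88.9 and 170 CPM with SynCom, against 36.6, 51.1 and 78.7 CPM with no bacteria. All 5 experiments were positive for RBOHD in Col-0, at 1.14, 0.91, 1.06, 0.34 and 0.34, but the call was lost without A, B or C (adjusted p = 0.113, 0.0678 and 0.106).

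Most changes in the MAP kinase cascade were small. MKK5 (AT3G21220), a MAP kinase kinase for MPK3 and MPK6, was higher at low Pi in phr1 (0.48 ± 0.14) and Col-0 (0.53 ± 0.13, adjusted p = 0.00084), where its levels were 22.1, 26.3 and 41.9 CPM with SynCom, against 12.3, 19.6 and 26.4 CPM with no bacteria. In every one of the 5 experiments both SynCom libraries of Col-0 lay above both of the others for MKK5, with log2 differences of 0.68, 0.37, 0.32, 1.07 and 0.21. Its relative MKK4 was higher in phr1 (0.45 ± 0.18) and Col-0 (0.58 ± 0.18), with Col-0 differences of 0.91, 0.57, 0.69, 0.30 and 0.24 in A to E. MPK4 (AT4G01370) was higher in phr1 (0.38 ± 0.08, adjusted p = 0.000233), with experiments A to E at -0.05, 0.65, 0.63, 0.23 and 0.37. MPK11 was higher in phr1 (1.49 ± 0.56, with experiments A to E at 0.26, 2.57, 4.02, 4.07 and -0.07), and its log2 fold change was 1.66 ± 0.87 in phr1 phl1 (adjusted p = 0.205; 2.43, 2.70 and 0.68 in C, D and E) and 0.84 ± 0.61 in Col-0 (adjusted p = 0.26). In phr1 the calls of MKK5 (adjusted p = 0.118), MKK4 (adjusted p = 0.211) and MPK11 (adjusted p = 0.153) were lost without experiment B, those of MKK4 and MPK11 also without C, and that of MKK4 without E. In Col-0 the MKK4 call was lost without A (adjusted p = 0.0617). MPK3 passed the test in none of the 6 SynCom comparisons.

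MPK6 (AT2G43790) was the member that went both ways. In phr1 phl1 at low Pi it was at 86.2, 109 and 116 CPM with SynCom, against 78.1, 84.1 and 92.4 CPM with no bacteria, and 5 of 6 SynCom libraries lay above the highest of the others (0.36 ± 0.09, adjusted p = 0.00253). In Col-0 it was at 66.5, 78.2 and 98.4 CPM, against 77.7, 88.2 and 107 CPM (-0.18 ± 0.07, adjusted p = 0.0241). Experiments C, D and E gave 0.49, 0.41 and 0.13 in phr1 phl1, and A to E gave -0.39, -0.23, -0.37, -0.11 and 0.12 in Col-0. The phr1 phl1 call was lost without C or D (adjusted p = 0.201 and 0.11), and the Col-0 call without A or C (adjusted p = 0.187 and 0.14).

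The precursors of the Pep peptides were scarce. PROPEP2 (AT5G64890) was at 0.332, 1.07 and 3.13 CPM with SynCom at low Pi in Col-0, against 0, 0.406 and 0.703 CPM with no bacteria (1.72 ± 0.43, adjusted p = 0.00052), and 9 of 10 SynCom libraries lay above the highest of the others. In phr1 its log2 fold change was 1.76 ± 0.41 (adjusted p = 0.00042). In phr1 phl1 it was 1.78 ± 0.67 (adjusted p = 0.0565), with 4 of 6 SynCom libraries above the highest with no bacteria. PROPEP2 was positive in all experiments, at 0.99, 2.27 and 2.65 in C, D and E in phr1 phl1, and from A to E at 1.42, 1.48, 3.05, 1.31 and 1.12 in phr1 and 1.70, 1.38, 0.25, 5.99 and 1.49 in Col-0. PROPEP1 (AT5G64900) was higher in Col-0 (0.95 ± 0.26), where experiments A to E gave 1.72, 1.07, 0.86, 1.18 and -1.11, and PROPEP3 was higher in phr1 (1.25 ± 0.40). In Col-0 the PROPEP3 log2 fold change was 1.02 ± 0.46 (adjusted p = 0.0645), and all 10 SynCom libraries lay above the median with no bacteria in both phr1 and Col-0. The SynCom change of no Pep gene differed between genotypes by the interaction test. The receptor PEPR2 was higher in phr1 (1.00 ± 0.35) and Col-0 (0.96 ± 0.31). In phr1 phl1 its log2 fold change was -0.49 ± 0.58 (adjusted p = 0.64). The Col-0 calls of PROPEP1 (adjusted p = 0.0937) and PEPR2 (adjusted p = 0.0943) were lost without experiment A, that of PEPR2 also without B. The phr1 calls of PROPEP3 (adjusted p = 0.0852) and PEPR2 (adjusted p = 0.0909) were lost without B and also without C or E, and that of PEPR2 without A. PEPR1, the other Pep receptor, passed the test in none of the 6 SynCom comparisons.

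Of the remaining flagellin markers, NHL10 (AT2G35980) was higher in phr1 at low Pi, with 3.52, 11.1 and 42.8 CPM with SynCom, against 0.236, 2.52 and 13.9 CPM with no bacteria (2.08 ± 0.40, adjusted p = 2.97e-05). All 10 SynCom libraries lay above the median with no bacteria and 3 above its highest library. Experiments A to D gave 2.35, 2.18, 4.73 and 3.13 for NHL10, while experiment E gave -1.21. NHL10 was not called in phr1 phl1, where C, D and E gave 2.03, 3.30 and -0.43. Nor was it called in Col-0, where A to E gave 1.98, 0.68, 1.58, 1.24 and -0.46. No difference of the NHL10 change with SynCom between either mutant and Col-0 passed the test. PHI-1 passed the test in none of the 6 comparisons.

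**Figure D2:**
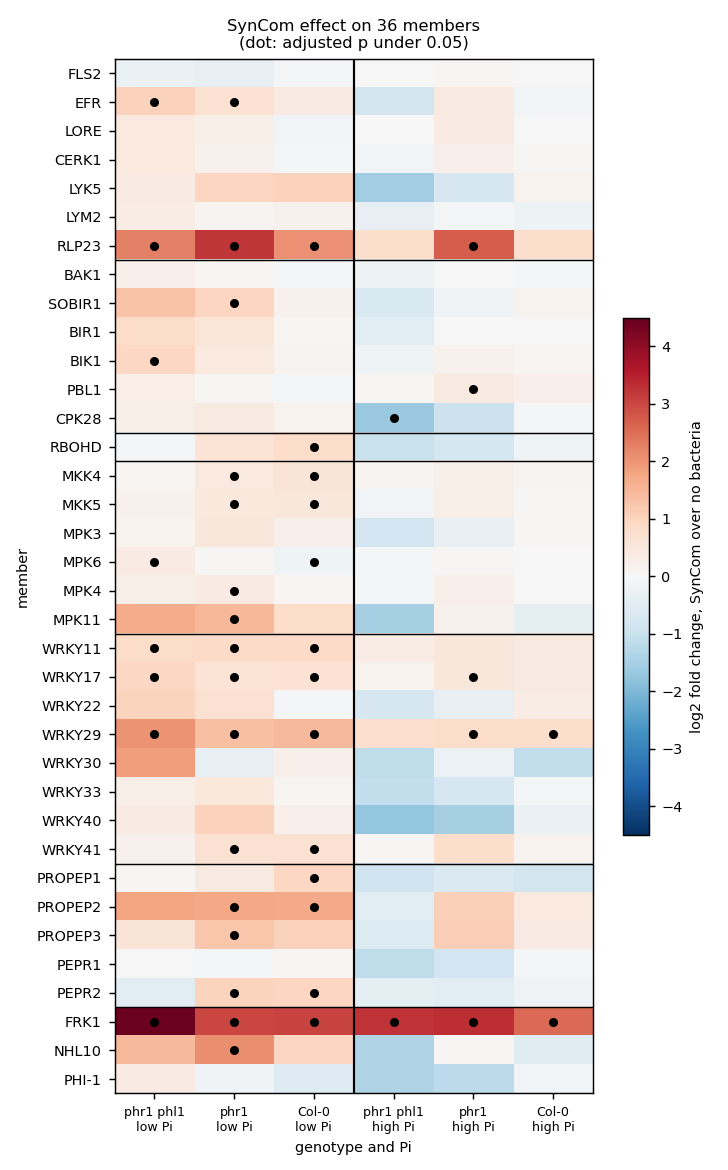
Log2 fold change of each member tested, SynCom over no bacteria, in 3 genotypes at low and high Pi, with members in order of role and calls (adjusted p under 0.05) marked. FRK1 is called in all 6 columns, and more members are called at low Pi (8, 16 and 12 higher in phr1 phl1, phr1 and Col-0) than at high Pi (1, 5 and 2).

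With SynCom at high Pi, far fewer genes changed anywhere in the table, and FRK1 was the member higher in all 3 genotypes. In phr1 phl1, 1 member was higher and 1 lower, against 0.713% and 1.69% of all genes tested. In phr1, 5 members were higher and 0 lower, against 2.72% and 2.4%. In Col-0, 2 members were higher and 0 lower, against 1.31% and 2.8%.

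FRK1 at high Pi was at 8.49, 17.7 and 86.0 CPM with SynCom in phr1 phl1, against 0.392, 3.47 and 5.48 CPM with no bacteria, without overlap. It was at 6.75, 39.4 and 254 CPM in phr1, against 0.816, 2.36 and 20.9 CPM, and at 2.27, 18.1 and 99.97 CPM in Col-0, against 0, 5.03 and 11.2 CPM. In each genotype every experiment was positive. The log2 fold changes were 3.27 ± 0.66 (adjusted p = 0.00116), 3.33 ± 0.46 (adjusted p = 5.69e-08) and 2.54 ± 0.47 (adjusted p = 5.45e-05) in phr1 phl1, phr1 and Col-0. Without experiment E the phr1 phl1 call was lost (2.35, adjusted p = 0.106).

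The other members higher at high Pi were RLP23 in phr1 (2.73 ± 0.45, adjusted p = 5.54e-06), WRKY29 in phr1 (0.82 ± 0.21) and Col-0 (0.79 ± 0.21), and WRKY17 (0.51 ± 0.14) and PBL1 (0.42 ± 0.12) in phr1. RLP23 in phr1 was at 3.38, 19.8 and 158 CPM with SynCom, against 1.63, 2.96 and 12.0 CPM with no bacteria, with all 10 SynCom libraries above the median of the others. The WRKY29 call in Col-0 was lost without experiment A (adjusted p = 0.0921) or C (adjusted p = 0.138), and that in phr1 without B (adjusted p = 0.115), as were those of WRKY17 (adjusted p = 0.166) and PBL1 (adjusted p = 0.185). WRKY17 also lost its call without A or C, and PBL1 without A or D. CPK28 was lower in phr1 phl1 (-1.65 ± 0.44, adjusted p = 0.0241), a value set by 1 library with no bacteria: it was -0.41 (adjusted p = 0.385) without the libraries that stand apart.

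**Figure D3:**
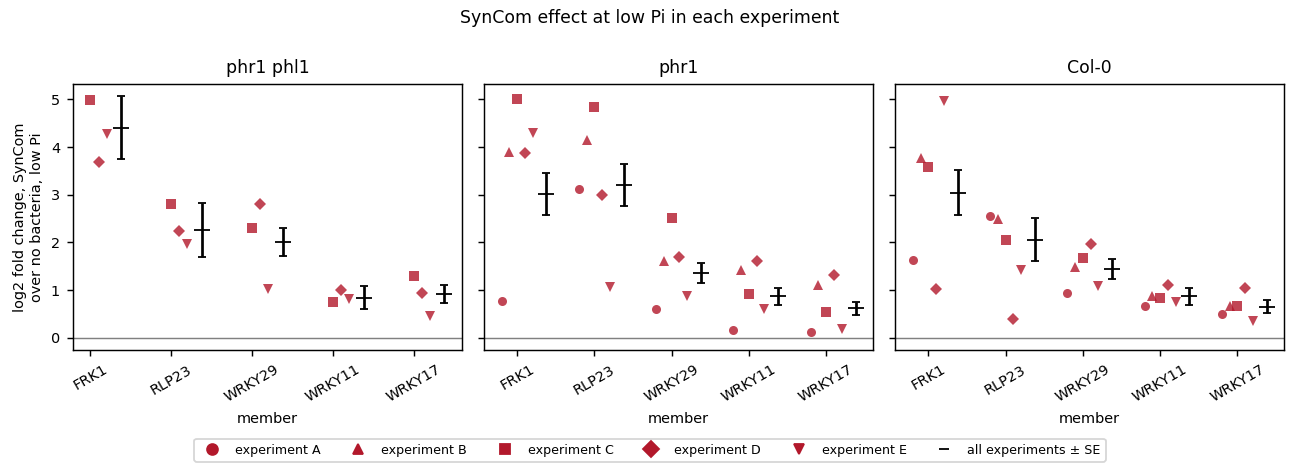
SynCom over no bacteria at low Pi within each experiment (coloured markers) for FRK1, RLP23, WRKY29, WRKY11 and WRKY17 in 3 genotypes, as log2 fold changes, beside the value over all experiments ± SE (black). All 5 members are positive in each experiment and genotype, and FRK1 in phr1 ranges between 0.78 in experiment A and 5.01 in experiment C.

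Low against high Pi, among seedlings with SynCom, set apart 3 members in all genotypes: WRKY29 and NHL10 were higher and FLS2 was lower at low Pi. In phr1 phl1, 8 members were higher and 1 lower, against 10.5% and 9% of all genes tested. In phr1, 4 were higher and 2 lower, against 13.4% and 11.1%, and in Col-0, 8 were higher and 4 lower, against 27.5% and 22.4%. The share of members called was thus below the background in phr1 and Col-0. Markers moved in the same comparison: 4, 7 and 9 of 10 photosynthesis genes were lower at low Pi in phr1 phl1, phr1 and Col-0, and in Col-0 6 of 9 endodermal and 4 of 5 root hair genes were higher. Their part was not tested. These comparisons, like those of mutants with Col-0, use the same SynCom libraries as the ones above and are not independent of them.

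NHL10 had the largest changes with Pi in the mutants, at 2.79 ± 0.72, 2.42 ± 0.43 and 1.38 ± 0.47 in phr1 phl1, phr1 and Col-0. In phr1 with SynCom it was at 3.52, 11.1 and 42.8 CPM at low Pi, against 0, 2.31 and 12.1 CPM at high Pi, while experiment E alone gave -0.71. FLS2 fell by 0.67 ± 0.23, 0.60 ± 0.17 and 0.45 ± 0.17 on the log2 scale in phr1 phl1, phr1 and Col-0. All 3 FLS2 calls were lost without experiment D (adjusted p = 0.846, 0.0752 and 0.0953). PROPEP1 was higher at low Pi in phr1 (1.40 ± 0.34) and Col-0 (1.76 ± 0.30), and PEPR2 likewise (1.01 ± 0.36 and 1.41 ± 0.35). In phr1 phl1, PEPR2 was at -1.08, with experiments C, D and E at -1.72, -1.32 and -0.68, but the change did not pass the test (adjusted p = 0.159). MKK5, PROPEP2, RLP23 and RBOHD were higher and PBL1, MPK6 and WRKY22 lower at low Pi in Col-0, while MPK6, MPK4, WRKY17, EFR, RLP23 and LYM2 were higher in phr1 phl1. PBL1 was also lower in phr1 (-0.30 ± 0.12). In Col-0 the calls of NHL10, RLP23, RBOHD, PBL1, MPK6 and WRKY22 were lost without experiment A (adjusted p between 0.0595 and 0.194) and those of WRKY29 and PROPEP2 without D (adjusted p = 0.2995 and 0.0581). RBOHD also lost its call in Col-0 without B or C, RLP23 without C or D, and MPK6 and FLS2 without B. In phr1, PBL1 lost its call without A, B, D or E, PEPR2 without A, B or C, and WRKY29 without C (adjusted p = 0.0514). In phr1 phl1, EFR was the 1 higher member that kept its call without each experiment: NHL10 lost it without D (adjusted p = 0.215), LYM2 without A, C or D, and MPK4, MPK6, RLP23, WRKY17 and WRKY29 without C or D, as FLS2 did.

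With no bacteria, Pi made no member pass the test in any genotype. Of all genes tested, 0%, 0% and 0.0264% were called in phr1 phl1, phr1 and Col-0 by edgeR, and 14, 12 and 3 members had an unadjusted p under 0.05, against 5.81%, 5.43% and 1.97% of all genes. Without the libraries that stand apart, 3, 0 and 7 members did, against 1.78%, 2.97% and 2.8%, and the median log2 fold change of the members was -0.09, 0.06 and -0.21 in place of -0.33, -0.14 and -0.19. DESeq2 called 0, 4 and 0 members, none of them higher at low Pi, against 0.0211%, 0.44% and 0.0159% of all genes.

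Between mutants and wild type, members were called with SynCom at low Pi, as were many other genes. In phr1 phl1, 13 members were higher and 2 lower than in Col-0, against 17.4% and 19% of all genes tested. In phr1, 5 were higher and 0 lower, against 12.2% and 14.1%. The share of members higher was near that of all genes in phr1 and above it in phr1 phl1. The share lower was below that of all genes in both. Markers of root tissue were lower in the same comparison, 5 of 9 endodermal and 3 of 5 root hair genes in phr1 phl1 and 6 of 9 and 4 of 5 in phr1, while 1 of 10 photosynthesis genes was higher in each. Their part was not tested. The lower members in phr1 phl1 were PEPR2 (-1.61 ± 0.47) and PROPEP1 (-1.13 ± 0.37). PEPR2 was at 0.396, 1.57 and 3.99 CPM in phr1 phl1, against 1.93, 6.05 and 8.62 CPM in Col-0, with overlapping ranges. Its call was lost without experiment C (adjusted p = 0.0674), and that of PROPEP1 without A, C or D.

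Among the higher members, MPK6 was at 86.2, 109 and 116 CPM in phr1 phl1, against 66.5, 78.2 and 98.4 CPM in Col-0 (0.54 ± 0.08, adjusted p = 8.05e-08). MPK4 (0.47 ± 0.10), BIK1 (0.95 ± 0.22) and EFR (1.11 ± 0.31) followed, and each was positive in all of C, D and E. EFR was at 1.16, 1.12 and 1.09 in those experiments. BIK1 was at 38.1, 47.5 and 56.0 CPM in phr1 phl1, against 15.2, 29.3 and 39.6 CPM in Col-0. FRK1 (1.42 ± 0.45), RLP23 (1.23 ± 0.46), SOBIR1 (1.18 ± 0.42), WRKY22 (1.03 ± 0.41), BIR1 (0.78 ± 0.29), LORE (0.70 ± 0.24), WRKY17 (0.48 ± 0.16), PBL1 (0.47 ± 0.14) and BAK1 (0.33 ± 0.14) made up the rest. With experiments C, D and E alone, which both genotypes share, 5 members were called in place of 15: MPK6, MPK4, BIK1, EFR and RLP23. Among the 18216 genes then tested, 27.1% were called, a larger share than among the members. Without experiment C the phr1 phl1 calls of RLP23, WRKY17, WRKY22, BIR1 and BAK1 were lost (adjusted p between 0.0589 and 0.239), and without D those of FRK1 and LORE (adjusted p = 0.0908 and 0.0723). Calls were also lost without A (BAK1, BIR1, LORE, WRKY17 and WRKY22), B (BAK1), D (BIR1 and RLP23) or E (BAK1, RLP23 and WRKY22). In phr1, MPK4 (0.31 ± 0.08), NHL10 (1.301 ± 0.38), MPK6 (0.22 ± 0.07), RLP23 (1.14 ± 0.39) and PBL1 (0.30 ± 0.12) were higher than in Col-0, and MPK4 alone was called with experiments C, D and E, against 5.87% of all genes. All 5 calls in phr1 were lost without experiment C (adjusted p between 0.0813 and 0.208), and MPK6 and PBL1 also lost theirs without A, B or D, and RLP23 without D.

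**Figure D4:**
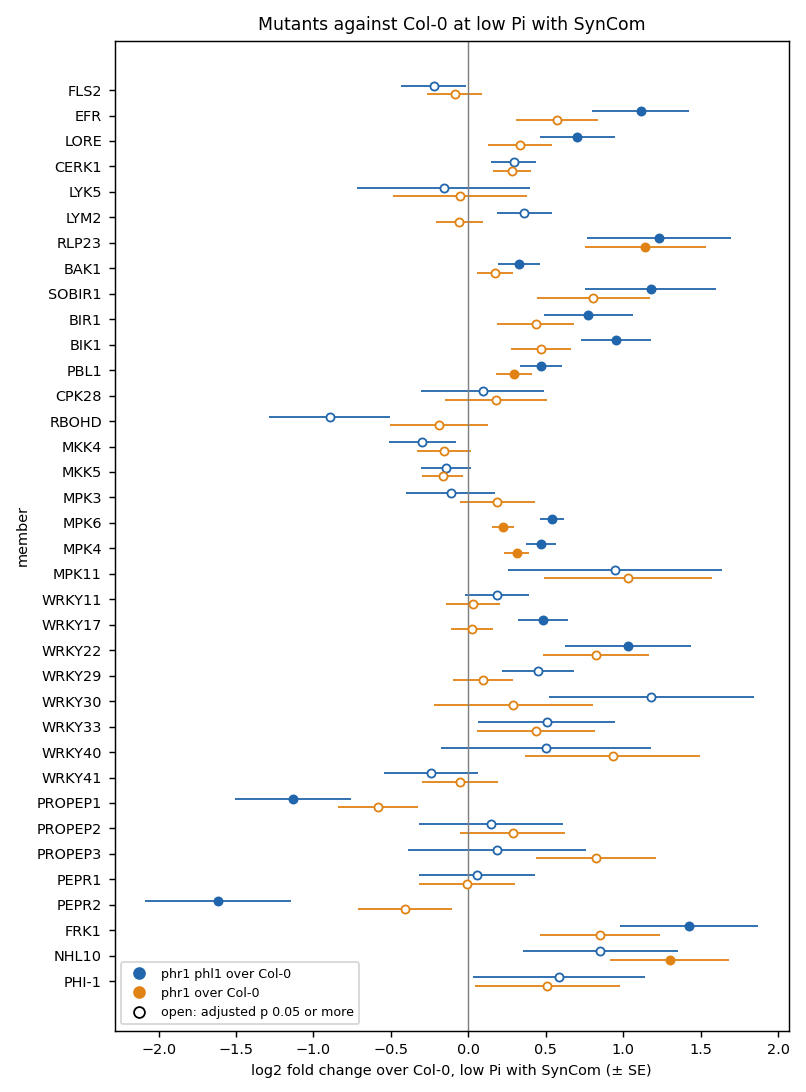
Log2 fold change of each member over Col-0, with SynCom at low Pi, for phr1 phl1 and phr1, with bars for 1 SE and filled points for calls. MPK6, MPK4, BIK1 and EFR are higher and PEPR2 and PROPEP1 lower in phr1 phl1.

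At high Pi with SynCom 0 members differed between either mutant and Col-0 by edgeR's test, against 0.127% of all genes in phr1 phl1 and 0.122% in phr1; 0 and 4 members had an unadjusted p under 0.05, against 8.71% and 4.23% of all genes, and DESeq2 called 0 in both. With no bacteria, averaged over Pi, 0 members differed either, against 0.571% and 0.106%, with 9 and 1 at an unadjusted p under 0.05, against 14.3% and 3.49% of all genes, and 0 by DESeq2. Without the libraries that stand apart, 3 and 0 members were at an unadjusted p under 0.05, against 16.4% and 4.2%.

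Whether the SynCom change itself differed was tested by interaction terms. Between low and high Pi, the SynCom change differed for 2 members in each genotype, or 5.56% of those tested. Among all genes tested the share was 4.39% in phr1 phl1, 5.85% in phr1 and 29.9% in Col-0. The members' share was thus near that of all genes in the mutants and below it in Col-0. The members called were EFR (1.88 ± 0.54) and MPK6 (0.43 ± 0.13) in phr1 phl1, NHL10 (2.02 ± 0.64) and RBOHD (1.41 ± 0.46) in phr1, and PROPEP1 (1.77 ± 0.42, adjusted p = 0.000745) and MKK5 (0.49 ± 0.19) in Col-0, all larger at low Pi. For PROPEP1 in Col-0, experiments A to D gave 2.60, 1.92, 2.22 and 1.22 and experiment E gave -0.25. Without the libraries that stand apart, RBOHD in phr1 had 0.44 (adjusted p = 0.318), EFR in phr1 phl1 1.53 (adjusted p = 0.0554), NHL10 in phr1 1.75 (adjusted p = 0.078) and MKK5 in Col-0 0.41 (adjusted p = 0.0665). With 1 experiment left out, MKK5, NHL10 and MPK6 lost their calls without A, C or D, RBOHD without A, B, C or D, and EFR without C, D or E. PROPEP1 kept its call under all alternatives except the one limited to experiments C, D and E (1.21, adjusted p = 0.204).

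Between genotypes, the SynCom change at low Pi differed from that in Col-0 for 1 member in phr1 phl1 (2.78%), a share below the 15.9% of all genes. In phr1 it differed for 0, against 3.2%, with 2 members at an unadjusted p under 0.05, against 20.4% of all genes, and 0 by DESeq2. The member called in phr1 phl1 was MPK6 (0.55 ± 0.11, adjusted p = 0.00044), with experiments C, D and E at 0.86, 0.52 and 0.01. Without experiment C it had 0.41 (adjusted p = 0.0723). At high Pi 0 members differed in phr1 phl1 and in phr1, against 0.00528% and 0% of all genes, with 4 and 1 members at an unadjusted p under 0.05, against 4.9% and 3.35% of all genes, and 0 by DESeq2. For FRK1, RLP23 and WRKY29 no difference of the SynCom change between genotypes passed the test.

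Among the 4 libraries that stand apart, 2 held many members far above the other libraries of their group, both of them library 1 of experiment D, grown at high Pi with no bacteria. Of the 36 members with counts, 22 in the phr1 phl1 library and 27 in the phr1 library lay above all other libraries of the group, and 12 in each were at least 4-fold above the median of the others. WRKY40 was at 764 CPM in the phr1 phl1 library and 863 CPM in the phr1 library, against medians of 39.6 and 18.8 CPM in the other libraries of those groups. WRKY33 was at 717 and 894 CPM, RBOHD at 400.2 and 530.3 CPM, CPK28 at 542 and 602 CPM, MPK3 at 531 and 586 CPM and LYK5 at 111 and 164 CPM in the same 2 libraries. FRK1, RLP23, WRKY29 and WRKY17, all higher with SynCom, did not share this: FRK1 was at 0.392 and 0.891 CPM, RLP23 at 2.74 and 2.23 CPM, WRKY29 at 3.14 and 4.01 CPM, and WRKY17 at 9.41 and 9.36 CPM, none above the highest of their groups. Most others that were called higher with SynCom did share it. EFR, SOBIR1, BIK1, RBOHD, MKK4, MKK5, MPK4, MPK11, PROPEP1, PEPR2 and NHL10 lay above all other libraries of the group in both. PROPEP2, PROPEP3 and WRKY41 did so in the phr1 library alone, and MPK6 and PBL1 in neither. WRKY11 was at 37.6 CPM in the phr1 phl1 library, under the highest of the others (40.2 CPM), and at 55.7 CPM in the phr1 library, above all others (up to 47.4 CPM). The summed level of 5 genes known to respond to touch was 2838 and 3901 CPM in these libraries, against a highest value of 1487 CPM among the other 102. Its part in these levels was not tested.

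**Figure D5:**
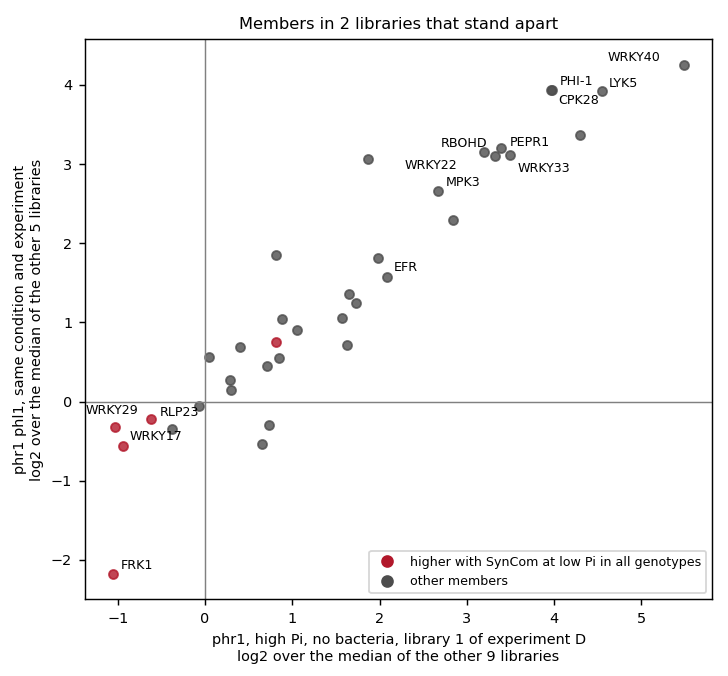
Each member's level in library 1 of experiment D at high Pi with no bacteria, as log2(CPM + 0.5) over the median of the other libraries of its group, in phr1 (x axis) and phr1 phl1 (y axis). WRKY40, LYK5, CPK28 and PHI-1 lie high in both libraries, while FRK1, RLP23, WRKY29 and WRKY17 lie below 0 in both.

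The other libraries that stand apart were library 2 of experiment E in phr1 phl1 at low Pi with no bacteria, with 21 members above and 1 below all others of its group, and library 2 of experiment D of Col-0 at low Pi with SynCom, with 1 above and 16 below. The lowest photosynthesis sum of that Col-0 group, 1480 CPM, was also in experiment D, where the median over all libraries was 43960 CPM. The part of tissue in these levels was not tested. Without all 4, 14 members were higher with SynCom at low Pi in phr1 phl1 and 23 in phr1, against 9.13% and 16.8% of the 19078 genes then tested. At high Pi, 1 was higher in phr1 phl1 and 12 in phr1, against 0.514% and 3.59%. None of the 4 libraries was in a phr1 group at low Pi, so the same phr1 libraries entered both fits of that comparison. The source of its shift was not tested. The added members at low Pi in phr1 were BIK1 (0.44), BIR1 (0.53), LYK5 (0.98), MPK3 (0.50), RBOHD (0.60), WRKY22 (0.69) and WRKY40 (1.05 on the log2 scale). In Col-0 at low Pi the counts were again 12 higher and 1 lower, against 22.8% and 18.3% of all genes.

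Of 42 other genes of the same pathway, 41 were tested. With SynCom at low Pi in phr1 phl1, 8 were higher and 0 lower, against 8.3% and 5.66% of all genes tested. In phr1, 12 were higher and 2 lower, against 15% and 12.2%, and in Col-0, 9 and 4, against 24.4% and 19.6%. In Col-0 neither share of these genes was above that of all genes tested. IOS1 (AT1G51800), a receptor kinase that associates with FLS2 and EFR complexes, was higher in all 3 (2.11 ± 0.32, 1.35 ± 0.23 and 1.10 ± 0.24). WRKY60 (0.98, 1.02 and 1.07) and the ubiquitin ligase PUB22 (1.73, 1.18 and 1.06) were also higher in phr1 phl1, phr1 and Col-0. The calcium-dependent kinase CPK5 was higher in phr1 phl1 (0.43) and phr1 (0.37), as was WRKY53 (1.36 and 1.55). PUB13, another ubiquitin ligase, was higher in phr1 phl1 (0.45) and lower in Col-0 (-0.22). In Col-0 the LysM protein gene LYM3 was higher (0.81), while BSK1 (-0.36), a kinase that associates with FLS2, and CPK11 (-0.61) were lower. At high Pi, IOS1 (1.38) and RIN4 (0.32) were higher in phr1, and ERF6 was lower in phr1 phl1 (-1.45). The shares of all genes called at high Pi are those given above. In Col-0, 0 of the 41 passed edgeR's test. An unadjusted p under 0.05 was found for 5 of them, against 2680 of the 18926 genes tested, a share not above that of all genes.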

How the data were processed

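RNA-seq libraries were not stranded, per the labels' protocols. The submitters' processing notes name CASAVA 1.8, cutadapt 1.3, TopHat2 2.1.1, HTSeq 0.6.1p1 and the TAIR10 build, and the deposited values are whole-number counts per gene. All libraries entered 1 fit of edgeR 4.0.16 (R 4.3.3, limma 3.58.1): genes were filtered over the 12 groups, scaled by TMM, fitted with group and experiment as terms and tested by quasi-likelihood, with Benjamini-Hochberg adjustment over 18926 genes for each of 25 contrasts. CPM use the TMM-scaled library size. SE is the log2 fold change over the root of F. The test was first tried on simulated data with 200 changed genes. DESeq2 1.42.0 and other settings were alternatives.

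The members and lists were chosen with earlier results of these data known. All members are named, and values within experiments are given for the 12 with the smallest adjusted p in any SynCom comparison and those with an interaction. Of the other pathway genes, up to 4 a comparison are named, by smallest adjusted p. Libraries of one experiment deviated together over groups (median correlation 0.506), which is why experiment is a term. Between experiments the median was -0.29, but deviations were taken from group means, which by itself makes that value negative. Replicate numbers within an experiment paired no samples (median correlation of residuals -0.05, against -0.06 for other numbers). No 2 libraries of a group agreed within sampling noise (lowest chi-square per degree of freedom 1.92 over 420 pairs). Depths are given with the results. The limit for RLP30 covers counting error only, while SE comes from the quasi-likelihood test and includes the spread between libraries. Of the members, 19 overlap another gene model, and reads shared with it cannot be assigned. Promoters were found by locus in RefSeq's TAIR10.1; no coordinate was moved between builds.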

Additional observations from a re-analysis of the deposited data

Results flagged for a closer look

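Of 168 groups of libraries examined for the 14 members described by experiment, 22 held a library far from the rest of its group, 21 of them above it. The gap rule used flags about 1 in 20 groups by chance where values are independent and normally distributed. CPM of libraries that share experiments need not meet this, so the count is not compared with chance. Library 1 of experiment D in phr1 at high Pi with no bacteria was high for MKK5 (26.7 CPM), MKK4 (37.9), EFR (18.7) and RBOHD (530.3), and its phr1 phl1 counterpart for PROPEP1 (7.05) and RBOHD (400.2 CPM). Library 2 of experiment B in phr1 at low Pi with SynCom was high for WRKY11 (115 CPM), MKK5 (53.0), MPK6 (140.4) and RBOHD (277). Experiment E supplied library 1 of phr1 at high Pi with SynCom, high for RLP23 (158 CPM), FRK1 (254) and NHL10 (12.1), library 1 of phr1 at low Pi with no bacteria, high for RLP23 (26.9) and NHL10 (13.9), and library 1 of phr1 phl1 at low Pi with SynCom, high for RLP23 (217.5) and MKK4 (27.2 CPM). Library 2 of experiment E was low for MPK6 in phr1 phl1 at low Pi with SynCom (86.2 CPM), and high for PROPEP2 in phr1 phl1 (2.55) and for RLP23 in Col-0 (31.7 CPM), both at high Pi with SynCom. FRK1 in library 2 of experiment A, phr1 at low Pi with no bacteria, was at 45.7 CPM, and PROPEP2 in library 2 of experiment C, phr1 phl1 at high Pi with no bacteria, at 1.52 CPM.

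The SynCom change differed between low and high Pi, by the interaction term of edgeR's fit, for MKK5 (0.49) and PROPEP1 (1.77) in Col-0, NHL10 (2.02) and RBOHD (1.41) in phr1, and MPK6 (0.43) and EFR (1.88) in phr1 phl1. It differed between phr1 phl1 and Col-0 at low Pi for MPK6 (0.55). In these tests the share of members called was near or below that of all genes tested. Those shares, adjusted p-values and the values without single experiments or libraries are in the account above.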

How the results depend on the processing

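Of 100 member calls over the comparisons, 24 held under all 14 alternatives that could be fitted, 16 of them among the 46 SynCom calls, and 0 reversed. Scaling by RLE kept 97, DESeq2 98, the replicate block within experiments 96 and the earlier quasi-likelihood method, chosen after seeing the data, 95; libraries summed per experiment and group kept 59, experiments C, D and E alone 47 of 97, and dropping the experiment term 45. Numbers of members called, with the main value first, were as follows. Shares of all genes called also moved with the setting and are not given beside each count. The shifts below are thus not results about the members alone. With SynCom at low Pi in Col-0, 13 were called, 8 to 16 with 1 experiment left out and 5 with experiments C, D and E alone; in phr1, 16, then 8 to 21, 9 with no experiment term, 10 with libraries summed per experiment and group and 8 with C, D and E alone; in phr1 phl1, 8, then 2 to 10, 2 with no experiment term and 14 without the libraries that stand apart. At high Pi in Col-0, 2, then 1 to 3, and 1 with no experiment term, summed or C, D and E alone; in phr1, 5, then 3 to 12, 2 with no experiment term or summed, 3 with C, D and E alone, 12 without the libraries that stand apart and 9 by DESeq2; in phr1 phl1, 2, then 0 to 2, 1 with the replicate block, 0 summed and 1 without those libraries. For low against high Pi with SynCom, Col-0 had 12, then 6 to 15, 6 with no experiment term and 3 with C, D and E alone; phr1 had 6, then 4 to 8, and 2 with no experiment term; phr1 phl1 had 9, then 1 to 14, and 4 with no experiment term. With no bacteria phr1 had 0, and 4 by DESeq2. For phr1 against Col-0 at low Pi with SynCom, 5, then 0 to 12, 1 with no experiment term, summed or C, D and E alone, and 9 without the libraries that stand apart; for phr1 phl1, 15, then 8 to 15, 5 with no experiment term, 8 summed and 5 with C, D and E alone. Interactions of Pi and SynCom gave 2 in Col-0, then 1 to 7, 1 with no filter, no experiment term or summed and 0 with C, D and E alone; 2 in phr1, then 0 to 4, 1 with the earlier method, the replicate block or no experiment term, 0 with no filter, summed or without the libraries that stand apart and 7 by DESeq2; 2 in phr1 phl1, then 0 to 7, 4 with the replicate block, 0 with no experiment term or summed, 1 with C, D and E alone or without those libraries and 9 by DESeq2. Interactions of genotype and SynCom at low Pi gave 0 in phr1, then 0 to 2, and 1 in phr1 phl1, then 0 to 3 and 5 without the libraries that stand apart. The cause of these shifts was not tested, except that fewer libraries enter the fits that leave some out or sum them. The replicate block changed no other count by over 1.5 times. With 6 libraries a group, 3 experiments and few counts for the Pep precursors, calls in phr1 phl1 rest on the least data.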
